A study of Homo sapiens with 16 samples.

Results

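Cholesterol and fatty acid synthesis genes were followed in 2 T-lineage acute lymphoblastic leukemia (T-ALL) cell lines after knock-down of USP7, which encodes a deubiquitylating enzyme. The set was a list of 34 symbols: enzymes of cholesterol synthesis, proteins that sense or regulate sterols, enzymes of fatty acid synthesis and targets of the liver X receptors. Of these, 33 were matched to a row of the count table, which held 57820 genes, and ACACA was not analysed here. All 33 passed the filter on low counts, as did 23063 genes in all.

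Cells make cholesterol from acetyl-CoA through the mevalonate pathway, whose intermediates also feed protein prenylation. When sterols in the endoplasmic reticulum run low, the escort protein SCAP carries the membrane-bound SREBP factors (products of SREBF1 and SREBF2) to the Golgi, where they are cut and released to activate the synthesis genes, and the INSIG proteins retain SCAP when sterols are plentiful. Liver X receptors respond to oxysterols and turn on genes of cholesterol export, and activated T cells are known to raise sterol synthesis before they divide.

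The RNA-seq libraries came from Jurkat and HSB-2 cells, both established lines labelled as positive for the T-ALL oncogene TAL1. There were 4 groups in each line, with 2 libraries apiece, namely wild-type cells, a scrambled control and the USP7 hairpins shRNA-4057 and shRNA-4058. The hairpins were delivered by lentivirus, and transduced cells were sorted for GFP or selected with puromycin, so wild-type cells differed from the hairpin groups by the virus and the selection as well as by the hairpin. The sources do not say which selection these libraries had, or whether the 2 libraries of a group came from separate transductions, so p-values measure only the spread between these libraries.

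Total counts were 76.6 to 235 M (mega) per library. The mean USP7 level, in CPM (counts scaled to a common library total, corrected for composition), was 391 in Jurkat wild-type and 385 in scrambled cells, 143 with shRNA-4057 and 243 with shRNA-4058. In HSB-2 the means were 240, 224, 146 and 159 CPM in the same order, and USP7 was called lower with each hairpin against each control. Defining T-lineage markers were expressed in both lines (CD3E from 298 to 616 CPM over the group means, although CD2 was at 0.802 to 4.94 CPM in HSB-2), and among markers of other lineages, HBB was at 0 counts in all libraries, MPO and EPCAM had at most 3 counts in any, and the group means of CD14 and MS4A1 were 0.319 CPM or less. COL1A1, a collagen gene, was at 4.66 to 11.2 CPM over the group means. It was called higher against scrambled with shRNA-4057 and shRNA-4058 in Jurkat (11.2 and 9.05 against 5.69 CPM) and with shRNA-4058 in HSB-2 (8.09 against 4.66 CPM), and MS4A1 with shRNA-4057 in Jurkat, from 1 and 2 counts to 34 and 35. Scrambled cells were themselves called below wild-type for COL1A1 in both lines (wild-type means of 7.91 CPM in Jurkat and 7.44 in HSB-2). Against wild-type, COL1A1 was called higher with shRNA-4057 in Jurkat and lower with shRNA-4057 in HSB-2. With shRNA-4058 it was not called against wild-type in either line. Against scrambled, all 8 T-lineage markers were called higher with each hairpin in HSB-2 (21.9% and 26.6% of all genes tested). In Jurkat 6 of 8 were called lower with each hairpin (27.3% and 26.7%), and 2 more higher with shRNA-4057 (22.7%). In HSB-2, scrambled cells were themselves called below wild-type for all 8 (17.9%). Against wild-type, 7 of 8 were called higher with each hairpin in HSB-2 (16% and 23%). In Jurkat 6 were lower (21.2% and 21.9%) and 1 higher (15.4% and 13.9%) with each hairpin against wild-type. The part of these shifts, and of the signal recognition particle RNA RN7SL2, which took 4.01% and 4.84% of the counts in the Jurkat scrambled libraries against 1.78% to 3.14% in the other Jurkat libraries, in the results that follow was not tested.

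The promoters of the set are described first, and whether any motif goes with the changes of expression was not tested. RefSeq promoters (GRCh38.p14, 250 bases before to 50 after the start) were at hand for 28 of the 33 genes. On both strands, the CCAAT box, a site of the factor NF-Y that often lies beside SREBP sites, was found in 20 of the 28 (71.4%), against 39.7% of all 27305 genes with a promoter in the table. The GC box GGGCGG was present in 27 of 28 (96.4%) against 48.3%, and the sterol regulatory element TCACNCCAC in 1 of 28 (3.57%) against 1.39%. The 27305 genes were not limited to those that passed the filter on low counts, and a gene with several promoters was counted if any of them held the motif. These are descriptions of letters within a fixed window and not of binding. Of the 28, only SREBF2 held this string, and variants of the element were not searched. In SREBF2 it begins 133 bases before the start, within chr22:41832952-41833000 on the plus strand of that build. It is shown with 20 bases on each side and the element in capitals:

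SREBF2: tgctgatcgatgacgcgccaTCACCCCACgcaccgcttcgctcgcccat

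A CCAAT box (in capitals, reading ATTGG where it lies on the other strand of the gene) is shown for MSMO1, INSIG1 and MVD, which are among the genes whose Jurkat values are given below. The windows are chr4:165327613-165327661 on the plus strand, chr7:155297686-155297734 on the plus strand and chr16:88663150-88663198 on the minus strand, and the box begins 34, 170 and 85 bases before the start:

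MSMO1: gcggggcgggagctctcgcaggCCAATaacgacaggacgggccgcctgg

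INSIG1: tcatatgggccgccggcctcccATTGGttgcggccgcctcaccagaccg

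MVD: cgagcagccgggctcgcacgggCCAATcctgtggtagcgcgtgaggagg

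To show how much of each transcript the lines held without knock-down, levels were divided by exonic length. In Jurkat wild-type cells the mean CPM per kilobase was highest for SCD, which puts the double bond into saturated fatty acids, at 175, followed by INSIG1 at 152, FDFT1, the squalene synthase that commits the pathway to sterols, at 134, and ACLY, which supplies cytosolic acetyl-CoA, at 107. FADS2 and FDPS were next at 95.5 and 94.0, and the remaining members lay at 45.9 or below. The lowest were CYP51A1 at 0.218 and ABCA1 at 0.536 CPM per kilobase. The row of CYP51A1, the lanosterol demethylase, overlaps AKAP9, an antisense gene and 2 others, and since the strand setting of the counting is not stated its value is uncertain. HSB-2 wild-type cells held more of most transcripts: 23 of the 33 were called higher than in Jurkat wild-type cells and 6 lower, where 33.5% and 34.6% of all genes tested were called in those directions. Called means an adjusted p (Benjamini-Hochberg, edgeR quasi-likelihood F-test over all genes tested) under 0.05.

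All 6 fatty acid genes measured were higher in HSB-2 wild-type cells. ELOVL6, which elongates palmitate, stood at 89.2 and 89.5 CPM in HSB-2 against 8.56 and 8.77 in Jurkat (log2 difference 3.37 ± 0.051 SE, adjusted p = 3.6e-25, edgeR), FADS1, a desaturase of polyunsaturated fatty acids, differed by 1.88 ± 0.031 and FASN, the fatty acid synthase, by 1.54 ± 0.044. Of the sterol genes, HMGCS1, the synthase at the entry of the mevalonate pathway, was higher in HSB-2 by 1.31 ± 0.047 and LSS, the lanosterol synthase, by 1.12 ± 0.041. The cholesterol exporters went the other way. ABCG1 was lower in HSB-2 by a log2 difference of -0.96 ± 0.041, and ABCA1 had 5.51 and 6.65 CPM in Jurkat but 0.0745 and 0.179 CPM, 17 counts in each library, in HSB-2. PMVK, FDPS, GGPS1 and SC5D were also lower, by between -0.50 and -0.09 on the log2 scale, and FDFT1, TM7SF2, DHCR7 and SCAP did not pass the test.

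In Jurkat, nearly the whole set fell with either hairpin and against either control. With shRNA-4057, 31 of 33 were called lower and 0 higher against scrambled (27.3% and 22.7% of all genes tested), and the same counts, 31 and 0, were found against wild-type (21.2% and 15.4%). With shRNA-4058, 29 were lower and 0 higher against scrambled (26.7% and 19.7%), and 28 and 0 against wild-type (21.9% and 13.9%). The median log2 change of the 33 genes was -0.92 and -0.84 with shRNA-4057 against scrambled and wild-type, and -0.52 and -0.32 with shRNA-4058, where the median of all genes tested lay between -0.02 and 0.00. With both hairpins against both controls, 27 members were called lower (9.73% of all genes) and 0 higher (4.61%). In each of the 4 Jurkat comparisons, 0 members were higher at an unadjusted p under 0.05 in edgeR, and DESeq2 also called 0 higher. In 28 members each of the 4 hairpin libraries lay below each of the 4 control libraries, which was so for 17% of all genes. In bulk RNA, fewer cells with a transcript and less of it per cell cannot be told apart.

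**Figure D1:**
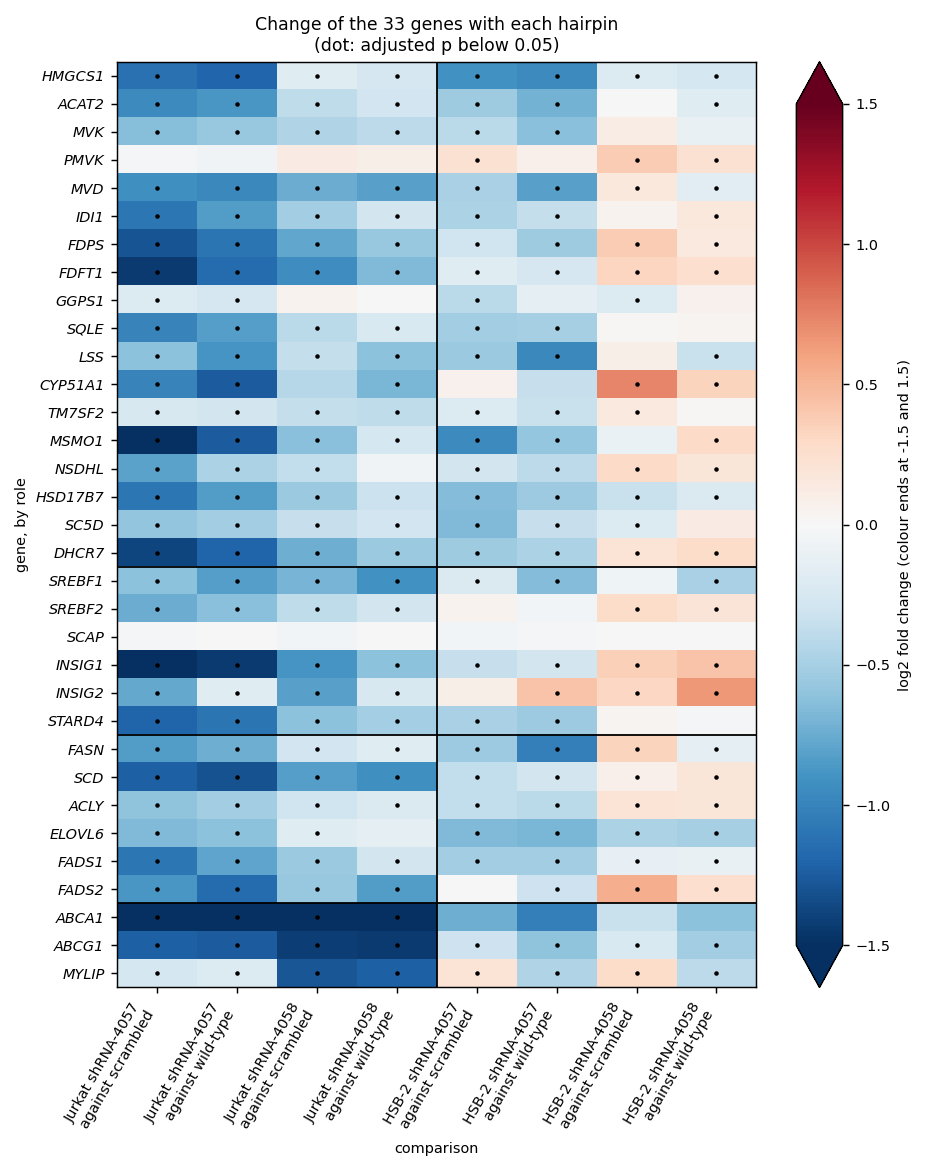
Log2 fold change (colour, blue lower and red higher) of the 33 genes, grouped by role from top to bottom as cholesterol synthesis, sterol sensing, fatty acid synthesis and liver X receptor targets, in the 8 comparisons of a hairpin with a control. Dots mark adjusted p under 0.05. The 4 Jurkat columns are blue for nearly every gene, with SCAP, PMVK and GGPS1 pale, while the shRNA-4058 columns of HSB-2 hold red and blue.

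**Figure D2:**
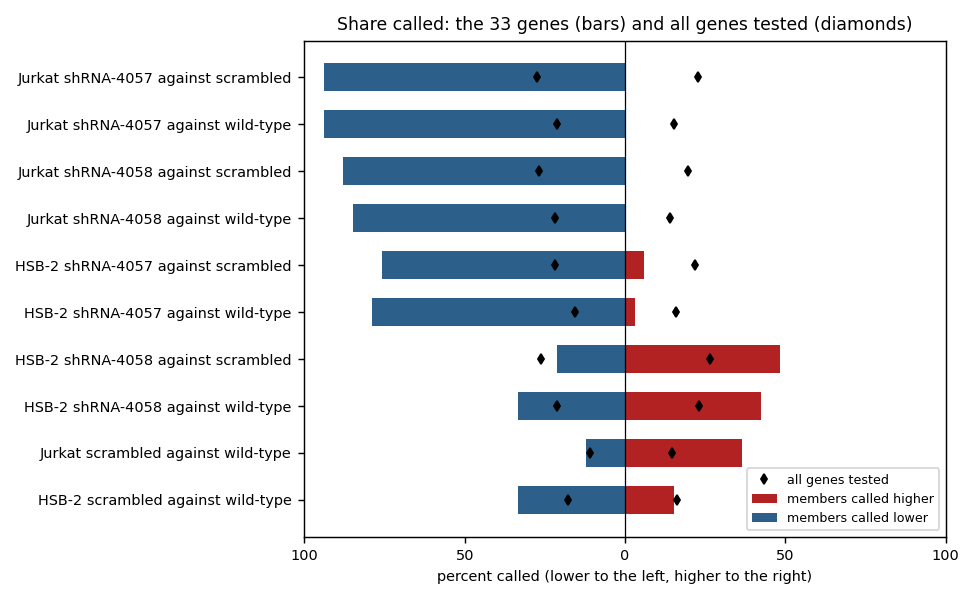
Percent of the 33 genes called lower (bars to the left) or higher (bars to the right) in each comparison, with the percent of all genes tested called in that direction as diamonds. The left bars reach 93.9% and 84.8% at the ends of the 4 Jurkat hairpin comparisons, past diamonds at 21.2% to 27.3%.

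The early mevalonate enzymes were examined gene by gene in Jurkat, with log2 changes given ± SE. HMGCS1 had 312 and 296 CPM in wild-type, 307 and 273 in scrambled, 130 and 137 in shRNA-4057 and 263 and 250 in shRNA-4058 libraries. Its log2 change against scrambled was -1.12 ± 0.047 with shRNA-4057 and -0.18 ± 0.046 with shRNA-4058, and against wild-type -1.19 ± 0.047 and -0.25 ± 0.046 (adjusted p from 2.3e-15 to 0.0029). ACAT2, the cytosolic thiolase that joins acetyl-CoA units, had 121 and 117 CPM in wild-type, 126 and 126 in scrambled, 63.3 and 67 in shRNA-4057 and 97.4 and 96.7 in shRNA-4058 libraries. The change was -0.95 ± 0.038 and -0.38 ± 0.038 against scrambled, so the fall with shRNA-4057 was again the deeper. The mevalonate kinase MVK had 28.3 and 29.7 CPM in wild-type, 29.7 and 30.9 in scrambled, 20 and 18.9 in shRNA-4057 and 22.6 and 21.7 in shRNA-4058 libraries, and changed by -0.64 ± 0.054 and -0.45 ± 0.053. MVD, the decarboxylase that yields isopentenyl diphosphate, had 100 and 105 CPM in wild-type, 98.6 and 99.4 in scrambled, 55.3 and 49.6 in shRNA-4057 and 58.6 and 58.9 in shRNA-4058 libraries, and changed by -0.92 ± 0.048 and -0.75 ± 0.048. In each of these 4 genes the hairpin libraries did not overlap the controls, and the adjusted p over the 4 comparisons was at most 0.0029 (edgeR). PMVK, the kinase between MVK and MVD, behaved otherwise: it had 25.9 and 25.3 CPM in wild-type, 24.7 and 25.3 in scrambled, 25.4 and 24 in shRNA-4057 and 25.7 and 28.8 in shRNA-4058 libraries, with overlapping groups and log2 changes between -0.05 and 0.12, none of them called. Under an offset for GC content and gene length PMVK was instead called lower with shRNA-4057, at -0.185 against scrambled and -0.184 against wild-type, and with Jurkat libraries alone it was called higher with shRNA-4058 against scrambled, at 0.158.

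The isoprenoid steps fell as well. IDI1, which isomerizes isopentenyl diphosphate, had 85.6 and 79.3 CPM in wild-type, 101 and 93.6 in scrambled, 44.4 and 47.7 in shRNA-4057 and 71.1 and 65.1 in shRNA-4058 libraries. FDPS, the farnesyl diphosphate synthase, had 348 and 351 CPM in wild-type, 394 and 413 in scrambled, 165 and 162 in shRNA-4057 and 230 and 241 in shRNA-4058 libraries, and FDFT1 had 676 and 688 CPM in wild-type, 814 and 827 in scrambled, 308 and 300 in shRNA-4057 and 427 and 437 in shRNA-4058 libraries. The FDFT1 change was -1.43 ± 0.03 with shRNA-4057 and -0.93 ± 0.029 with shRNA-4058 against scrambled, and -1.16 ± 0.03 and -0.66 ± 0.029 against wild-type (adjusted p from 4.8e-21 to 4.1e-14). For FDPS the 4 values, in the same order, were -1.30 ± 0.036, -0.78 ± 0.035, -1.09 ± 0.035 and -0.57 ± 0.035, and for IDI1 they were -1.08 ± 0.063, -0.52 ± 0.061, -0.84 ± 0.063 and -0.28 ± 0.062. FDPS has processed pseudogenes, so its reads could have been divided among copies. GGPS1, which makes the geranylgeranyl group of the prenylation branch, was called lower with shRNA-4057 only, at -0.20 against scrambled and -0.25 against wild-type, and had 0.05 and 0.00 with shRNA-4058. Without scrambled replicate 2 the first of these was -0.16 and no longer called, nor was it without shRNA-4057 replicate 1 (-0.142).

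Of the enzymes that turn squalene into cholesterol, SQLE, the epoxidase and a rate-limiting step, had 148 and 141 CPM in wild-type, 164 and 160 in scrambled, 78.1 and 83.9 in shRNA-4057 and 125 and 121 in shRNA-4058 libraries, a log2 change of -0.83 ± 0.04 and -0.23 ± 0.039 against wild-type, with the scrambled libraries higher than the wild-type ones. LSS had 190 and 205 CPM in wild-type, 166 and 165 in scrambled, 110 and 105 in shRNA-4057 and 127 and 131 in shRNA-4058 libraries, and unlike most genes of the group it lay higher in wild-type than in scrambled cells. MSMO1, the oxidase that removes methyl groups, had 71.9 and 69.6 CPM in wild-type, 95.5 and 87.9 in scrambled, 28.6 and 30.8 in shRNA-4057 and 65.2 and 52.8 in shRNA-4058 libraries, and its fall of -1.63 ± 0.093 with shRNA-4057 against scrambled was the deepest of the cholesterol enzymes. With shRNA-4058 it changed by -0.63 ± 0.089 against scrambled but only -0.26 ± 0.09 against wild-type. HSD17B7, a sterol ketoreductase that has a near-identical pseudogene, had 20.9 and 18.7 CPM in wild-type, 22.4 and 24.4 in scrambled, 10.5 and 11.7 in shRNA-4057 and 16.5 and 15.3 in shRNA-4058 libraries (-1.08 and -0.56 against scrambled). DHCR7, which performs the last reduction to cholesterol, had 151 and 159 CPM in wild-type, 172 and 179 in scrambled, 68.8 and 66.3 in shRNA-4057 and 103 and 108 in shRNA-4058 libraries, and its change was -1.38 ± 0.042 and -0.73 ± 0.041 against scrambled. SC5D, the desaturase just before it in the pathway, had 23.7 and 21.8 CPM in wild-type, 23.3 and 24.3 in scrambled, 15.2 and 16.5 in shRNA-4057 and 19.9 and 17.4 in shRNA-4058 libraries, and the sterol reductase TM7SF2 had 29.1 and 31.4 CPM in wild-type, 28.9 and 30.7 in scrambled, 25.7 and 24.6 in shRNA-4057 and 23 and 23.4 in shRNA-4058 libraries. These 2 had the shallower falls, -0.59 and -0.24 with shRNA-4057 against scrambled. NSDHL, a sterol dehydrogenase, fell in 3 of the 4 comparisons and had -0.05 with shRNA-4058 against wild-type, where its libraries overlapped. CYP51A1, uncertain for the reason above, lay between 0.311 and 0.989 CPM in all Jurkat libraries.

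Among the regulators, the transcripts of both SREBP genes fell in Jurkat. SREBF2 (chromosome 22, 42229109 to 42303310, GRCh37), whose product chiefly drives cholesterol genes, had 331 and 346 CPM in wild-type, 362 and 368 in scrambled, 221 and 214 in shRNA-4057 and 277 and 285 in shRNA-4058 libraries. It changed by -0.74 ± 0.036 with shRNA-4057 and -0.38 ± 0.035 with shRNA-4058 against scrambled (adjusted p from 2.3e-14 to 1.9e-06). SREBF1, whose product chiefly drives fatty acid genes, had 263 and 278 CPM in wild-type, 231 and 238 in scrambled, 157 and 147 in shRNA-4057 and 137 and 151 in shRNA-4058 libraries. Its changes were -0.62 ± 0.047 and -0.70 ± 0.047 against scrambled and -0.83 ± 0.047 and -0.91 ± 0.047 against wild-type. INSIG1 (chromosome 7, 155089486 to 155101945, GRCh37), itself a target of the SREBPs and a retention factor of SCAP, had 558 and 550 CPM in wild-type, 678 and 662 in scrambled, 205 and 206 in shRNA-4057 and 371 and 356 in shRNA-4058 libraries. Its fall of -1.71 ± 0.035 with shRNA-4057 against scrambled was the largest of the set after ABCA1, and the other values were -0.88 ± 0.034, -1.43 ± 0.035 and -0.61 ± 0.034 (adjusted p from 3.7e-21 to 2e-12). INSIG2, its paralogue, had 26.7 and 24 CPM in wild-type, 40.3 and 35.9 in scrambled, 21.5 and 23.4 in shRNA-4057 and 22.1 and 21 in shRNA-4058 libraries. The scrambled libraries stood above the rest for this gene, so that its fall was -0.77 and -0.82 against scrambled but -0.18 and -0.24 against wild-type. STARD4, a carrier of cholesterol between membranes, had 51.5 and 49.4 CPM in wild-type, 57.7 and 50.5 in scrambled, 22.8 and 24.4 in shRNA-4057 and 38.7 and 32 in shRNA-4058 libraries, a change of -1.20 ± 0.075 and -0.61 ± 0.073 against scrambled. SCAP had 112 and 119 CPM in wild-type, 118 and 118 in scrambled, 118 and 113 in shRNA-4057 and 112 and 118 in shRNA-4058 libraries, and its 4 log2 changes lay between -0.04 and 0.00 with no call. Under an offset for GC content and gene length, SCAP was instead called higher with shRNA-4058, by 0.149 against scrambled and 0.144 against wild-type.

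All 6 measured fatty acid genes fell with shRNA-4057. SCD (chromosome 10, 102106990 to 102124583, GRCh37) had 916 and 922 CPM in wild-type, 874 and 860 in scrambled, 371 and 370 in shRNA-4057 and 486 and 488 in shRNA-4058 libraries, and its log2 change was -1.23 ± 0.027 and -0.83 ± 0.027 against scrambled and -1.31 ± 0.027 and -0.92 ± 0.027 against wild-type (adjusted p from 1.3e-20 to 2.8e-17). ACLY had 555 and 563 CPM in wild-type, 587 and 594 in scrambled, 397 and 383 in shRNA-4057 and 475 and 486 in shRNA-4058 libraries, with changes of -0.60 and -0.30 against scrambled. FASN had 370 and 395 CPM in wild-type, 410 and 413 in scrambled, 235 and 226 in shRNA-4057 and 324 and 350 in shRNA-4058 libraries, and the change was -0.84 ± 0.044 and -0.29 ± 0.044 against scrambled but -0.18 ± 0.044 with shRNA-4058 against wild-type. Under the GC and length offset both shRNA-4058 calls of FASN were lost, at -0.0203 against scrambled and 0.0194 against wild-type. The desaturases FADS1 and FADS2 lie head to head on chromosome 11 with overlapping annotation. FADS1 had 204 and 209 CPM in wild-type, 251 and 252 in scrambled, 119 and 120 in shRNA-4057 and 168 and 173 in shRNA-4058 libraries, and FADS2 had 985 and 1030 CPM in wild-type, 818 and 844 in scrambled, 463 and 445 in shRNA-4057 and 548 and 576 in shRNA-4058 libraries. Their changes against scrambled were -1.08 and -0.56 for FADS1, and -0.87 and -0.57 for FADS2. ELOVL6 had 8.56 and 8.77 CPM in wild-type, 9.07 and 8.76 in scrambled, 5.63 and 5.67 in shRNA-4057 and 7.92 and 7.81 in shRNA-4058 libraries, and it fell in 3 comparisons, the exception being shRNA-4058 against wild-type with -0.14 ± 0.055 (adjusted p = 0.056).

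The liver X receptor targets held the deepest fall of the set. ABCA1 (chromosome 9, 107543287 to 107690436, GRCh37), which loads cholesterol onto apolipoproteins, had 6.65 and 5.51 CPM in wild-type, 4.85 and 3.85 in scrambled, 1.12 and 0.592 in shRNA-4057 and 1.2 and 1.13 in shRNA-4058 libraries. Its log2 change was -2.34 ± 0.23 and -1.90 ± 0.22 against scrambled, and -2.82 ± 0.23 and -2.39 ± 0.22 against wild-type (adjusted p from 1e-09 to 1.7e-07), from counts that went from 364 to 777 in the controls to 61 to 152 in the hairpin libraries. ABCG1, which exports cholesterol to high-density lipoprotein, had 140 and 148 CPM in wild-type, 140 and 144 in scrambled, 61.4 and 59.4 in shRNA-4057 and 52.9 and 53.8 in shRNA-4058 libraries, with changes of -1.23 ± 0.042 and -1.41 ± 0.042 against scrambled. MYLIP, a ubiquitin ligase that removes lipoprotein receptors from the surface, had 9.49 and 8.83 CPM in wild-type, 8.79 and 10.2 in scrambled, 7.87 and 8.02 in shRNA-4057 and 4.27 and 3.52 in shRNA-4058 libraries. It changed by -0.26 ± 0.077 with shRNA-4057 and -1.28 ± 0.083 with shRNA-4058 against scrambled, and the shRNA-4057 call was lost without scrambled replicate 2, where the change was -0.122.

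**Figure D3:**
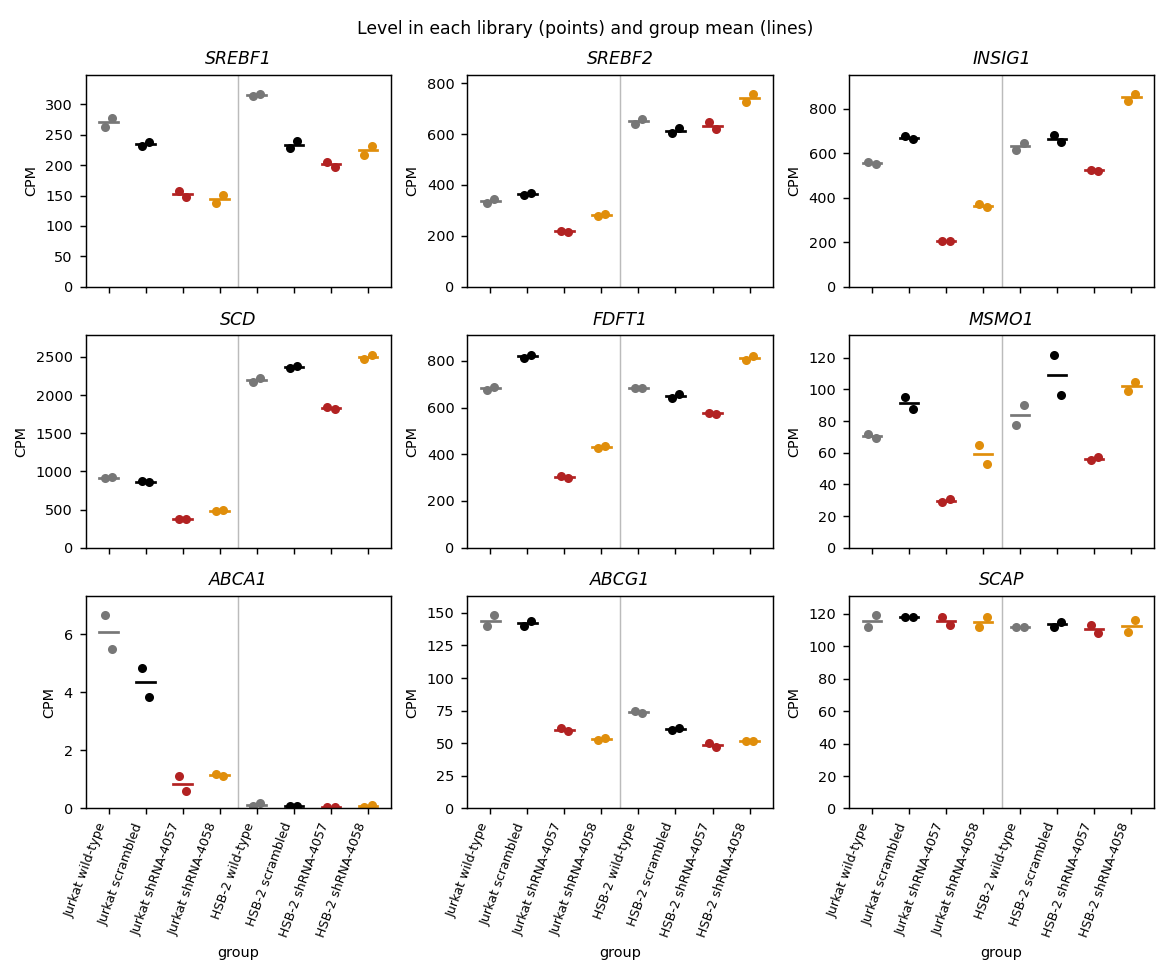
CPM (vertical axis, from 0) of 9 members in each of the 16 libraries, with a point for each library and a line at the mean of each group, Jurkat on the left and HSB-2 on the right of each panel. In Jurkat the red and orange points of the hairpins sit below the black and grey controls in 8 panels, while SCAP stays between 108 and 119 CPM in all libraries.

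Of the 27 members, 6 lost a call in at least 1 of their 4 comparisons when 1 library was left out: TM7SF2, MYLIP, INSIG2, HMGCS1, MSMO1 and SC5D. For HMGCS1 the change with shRNA-4058 against scrambled was -0.093 without scrambled replicate 1. Without wild-type replicate 1, the changes with shRNA-4058 against wild-type were -0.24 for MSMO1, -0.23 for SC5D and -0.161 for INSIG2, none of them called, and without shRNA-4058 replicate 2 they were -0.12, -0.197 and -0.205, again not called. INSIG2 with shRNA-4057 against wild-type was -0.105 without wild-type replicate 1 and -0.124 without shRNA-4057 replicate 1, and MYLIP in that comparison was -0.157 without wild-type replicate 1. TM7SF2 with shRNA-4057 against scrambled was -0.178 without scrambled replicate 2. ELOVL6, outside the 27, lost its call with shRNA-4058 against scrambled without either scrambled library (-0.156 and -0.165) and without shRNA-4058 replicate 2 (-0.171). Leaving out wild-type replicate 1 brought the 27 to 23, the lowest count of any such fit.

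The hairpins differed in depth of effect. In Jurkat, 24 members were called lower with shRNA-4057 than with shRNA-4058 and 2 higher (16.2% and 17.7% of all genes tested), and 21 of the 27 were among the 24. Of the 24, HMGCS1 and MSMO1 differed most, by -0.94 ± 0.047 and -0.99 ± 0.093, and INSIG1 by -0.82 ± 0.034. The 2 exceptions were MYLIP, higher with shRNA-4057 by 1.02 ± 0.083, and ABCG1, by 0.18 ± 0.042. For SREBF1, INSIG2, ABCA1 and TM7SF2 the difference did not pass the test, with log2 values of 0.08, 0.06, -0.43 and 0.12. USP7 was also lower with shRNA-4057, by -0.77 ± 0.035 (adjusted p = 4.5e-14, edgeR), and whether the order of the 33 genes depends on the level of USP7 was not tested.

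The controls of Jurkat differed from each other as well. In scrambled against wild-type cells 12 members were called higher and 4 lower (14.8% and 11% of all genes). The largest was INSIG2 at 0.58 ± 0.065, then MSMO1 at 0.37 ± 0.089 and NSDHL at 0.33 ± 0.06, while LSS, SREBF1, SCD and FADS2 were lower. The median change of the 33 genes in this comparison was 0.07.

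In HSB-2 the hairpins gave unlike results. With shRNA-4057, 25 members were called lower and 2 higher against scrambled (21.7% and 21.9% of all genes), and 26 lower and 1 higher against wild-type (15.7% and 16%). The median log2 change was -0.40 and -0.47. With shRNA-4058, 16 members were called higher and 7 lower against scrambled (26.6% and 26.2%), and 14 higher and 11 lower against wild-type (23% and 21.1%), with medians of 0.09 and 0.04. The split with shRNA-4058 was 18 higher and 5 lower against scrambled, and 14 and 9 against wild-type, with RLE size factors, but under an offset for GC content and gene length 9 members were higher and 13 lower against scrambled, and 13 and 14 against wild-type. Compared with each other, 28 members were lower with shRNA-4057 than with shRNA-4058 and 0 higher (14.3% and 10.5%), and 0 were higher at an unadjusted p under 0.05 or by DESeq2. USP7 was lower with shRNA-4057 by -0.12 ± 0.035 (adjusted p = 0.015, edgeR).

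Some members nevertheless fell with both hairpins in HSB-2. HMGCS1 had 725 and 779 CPM in wild-type, 740 and 711 in scrambled, 382 and 392 in shRNA-4057 and 635 and 621 in shRNA-4058 libraries, a change of -0.91 ± 0.046 and -0.21 ± 0.046 against scrambled. HSD17B7 had 24.5 and 25.3 CPM in wild-type, 27.7 and 26 in scrambled, 17.2 and 17 in shRNA-4057 and 21.9 and 20.8 in shRNA-4058 libraries, and changed by -0.65 ± 0.067 and -0.33 ± 0.066. ELOVL6 had 89.2 and 89.5 CPM in wild-type, 90.2 and 86.2 in scrambled, 55.4 and 56.1 in shRNA-4057 and 64.1 and 61.9 in shRNA-4058 libraries, with changes of -0.66 ± 0.043 and -0.48 ± 0.043 against scrambled. FADS1 had 756 and 766 CPM in wild-type, 759 and 764 in scrambled, 535 and 526 in shRNA-4057 and 693 and 714 in shRNA-4058 libraries, with -0.52 ± 0.03 and -0.12 ± 0.03 against scrambled. ABCG1 had 74.8 and 73.5 CPM in wild-type, 60 and 61.4 in scrambled, 50.2 and 47.5 in shRNA-4057 and 51.6 and 52.1 in shRNA-4058 libraries, with -0.31 ± 0.042 and -0.23 ± 0.041. These 5 were the members called lower with both hairpins against both controls (7.83% of all genes), and 0 were called higher (9.2%), also by DESeq2 or at an unadjusted p under 0.05. In the same 5 each hairpin library lay below each control library, which held for 15.3% of all genes, so this share of the set, 15.2%, was near that of all genes. The count was 3 without wild-type replicate 1 and 2 without shRNA-4058 replicate 2, and HMGCS1, HSD17B7 and FADS1 each lost a call in such fits. Without shRNA-4058 replicate 2 the changes with that hairpin were -0.118 for HMGCS1 and -0.0613 for FADS1 against scrambled, and -0.117 for HSD17B7 against wild-type. The FADS1 call with shRNA-4058 was also lost with RLE size factors (-0.0536 against scrambled, -0.065 against wild-type) and with DESeq2 (-0.0538 and -0.0652), which brought the 5 to 4, and that of HMGCS1 against scrambled under the GC and length offset (-0.0701). Against scrambled alone, 7 members were lower with both hairpins and 2 higher (16.7% and 18.5%).

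In all, 10 members fell with shRNA-4057 and rose with shRNA-4058 in HSB-2 when set against scrambled: MVD, FDPS, FDFT1, TM7SF2, NSDHL, DHCR7, INSIG1, FASN, SCD and ACLY. They were 30.3% of the set, and 0.546% of all genes tested were called in these directions. The rise with shRNA-4058 did not hold against wild-type for all of them. MVD and FASN were called lower there (means of 121 against 136 CPM and 999 against 1109 CPM) and TM7SF2 was not called, while the others were called higher. Scrambled cells were themselves called below wild-type for MVD, FDPS and FASN. INSIG1 had 614 and 647 CPM in wild-type, 680 and 650 in scrambled, 526 and 518 in shRNA-4057 and 836 and 866 in shRNA-4058 libraries. The shRNA-4057 libraries were the lowest and the shRNA-4058 libraries the highest, at -0.35 ± 0.034 and 0.36 ± 0.034 against scrambled, and the 2 values kept their signs against wild-type (-0.27 and 0.43). FDFT1 had 685 and 683 CPM in wild-type, 643 and 659 in scrambled, 577 and 574 in shRNA-4057 and 805 and 820 in shRNA-4058 libraries, with -0.18 ± 0.029 and 0.32 ± 0.029, and DHCR7 had 158 and 159 CPM in wild-type, 160 and 170 in scrambled, 115 and 114 in shRNA-4057 and 188 and 194 in shRNA-4058 libraries. SCD had 2174 and 2227 CPM in wild-type, 2357 and 2383 in scrambled, 1840 and 1817 in shRNA-4057 and 2471 and 2530 in shRNA-4058 libraries, and its rise with shRNA-4058 was 0.08 ± 0.026 (adjusted p = 0.017, edgeR). That of SCD was not called without scrambled replicate 1 (0.0687), and the rises of MVD and TM7SF2 were not called in that fit either (0.131 and 0.06). TM7SF2 with shRNA-4057 was -0.119 and not called without scrambled replicate 2. Under the GC and length offset, MVD, TM7SF2, DHCR7, FASN, SCD and ACLY were below 0 with shRNA-4058 against scrambled, and INSIG1, FDFT1 and NSDHL stayed above it with their calls, while FDPS was at 0.0595 and no longer called.

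SREBF2 in HSB-2 had 641 and 659 CPM in wild-type, 603 and 623 in scrambled, 648 and 618 in shRNA-4057 and 726 and 758 in shRNA-4058 libraries, a change of 0.05 ± 0.035 with shRNA-4057, which was not called, and 0.28 ± 0.035 with shRNA-4058. Under the offset these were -0.119, called lower, and -0.0323. SREBF1 had 314 and 317 CPM in wild-type, 228 and 239 in scrambled, 205 and 197 in shRNA-4057 and 217 and 232 in shRNA-4058 libraries. The wild-type libraries stood above all others, so that it fell against wild-type with both hairpins (-0.65 ± 0.046 and -0.49 ± 0.046) and against scrambled with shRNA-4057 only (-0.22 ± 0.046). SCAP had no call in HSB-2 and log2 changes of -0.04 to 0.00, but -0.363 with shRNA-4058 against scrambled under the offset, where SREBF1 was also called lower (-0.422). ABCA1 had 0.0745 and 0.179 CPM in wild-type, 0.102 and 0.074 in scrambled, 0.0467 and 0.0579 in shRNA-4057 and 0.0577 and 0.104 in shRNA-4058 libraries, from 4 to 19 counts a library, and none of its changes passed the test. A limit of 3 counts, which a library with 0 could still hide, corresponds to 0.0132 to 0.0444 CPM in HSB-2, so the values of ABCA1 lie close to it.

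MYLIP was the 1 member called lower in Jurkat and higher in HSB-2 with both hairpins against scrambled, as were 6.3% of all genes (3.1% were called the other way round, and 0 members, since 0 were higher in Jurkat). In HSB-2 it had 54.9 and 55.6 CPM in wild-type, 35.3 and 34.7 in scrambled, 41.2 and 39.9 in shRNA-4057 and 42.2 and 42.3 in shRNA-4058 libraries, with rises of 0.21 ± 0.063 and 0.27 ± 0.062 against scrambled, but the scrambled libraries were far below wild-type, so it was called lower than wild-type, at -0.45 and -0.39. The rise with shRNA-4057 was not called without scrambled replicate 2 (0.198) or without shRNA-4057 replicate 1 (0.187). PMVK, the other gene that rose with both hairpins against scrambled, had 19.8 and 18.7 CPM in wild-type, 17.6 and 17.2 in scrambled, 19.9 and 20.9 in shRNA-4057 and 22.2 and 23 in shRNA-4058 libraries, and against wild-type it was called with shRNA-4058 only. In scrambled against wild-type HSB-2 cells, 5 members were higher and 11 lower (16.1% and 17.9%), the largest being MYLIP at -0.66 ± 0.062 and FASN at -0.48 ± 0.043.

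To ask what both hairpins shared, the 4 hairpin libraries of a line were pooled against its 2 scrambled libraries, so that the difference between hairpins became part of the error. The fit counted the 4 hairpin libraries as separate units although they held only 2 hairpins, so its SE and p-values can be too small. In Jurkat 25 members were called lower and 0 higher (15.7% and 12.4% of all genes), the latter also 0 at an unadjusted p under 0.05 and by DESeq2. ABCA1 (-2.08 ± 0.26, adjusted p = 0.0015), ABCG1 (-1.30 ± 0.075, adjusted p = 0.0001), INSIG1 (-1.21 ± 0.25, adjusted p = 0.011) and FDFT1 (-1.13 ± 0.16, adjusted p = 0.0025) had the deepest falls (edgeR). The count was 7 without scrambled replicate 2, 10 without scrambled replicate 1 and 10 with wild-type libraries as the control. In HSB-2, 4 members were lower (GGPS1, HSD17B7, ELOVL6 and ABCG1) and 2 higher (PMVK and MYLIP), where 17.8% and 20.3% of all genes were called. The 6 calls became 2 without scrambled replicate 1 and 2 without scrambled replicate 2.

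The difference of the pooled effect between the lines was tested as an interaction over 12 libraries, with the libraries of a hairpin again counted as separate units. For 12 members the effect was called higher (less of a fall, or a rise) in HSB-2 than in Jurkat and for 0 lower, against 20.6% and 17.1% of all genes. The second count was also 0 at an unadjusted p under 0.05 and by DESeq2. The group held ABCA1 (1.63 ± 0.51), INSIG1 (1.29 ± 0.37), FDFT1 (1.25 ± 0.25), ABCG1 (1.05 ± 0.1) and INSIG2 (1.01 ± 0.13), with the SREBP genes among the rest. SREBF1 (0.53 ± 0.1, adjusted p = 0.0014) and SREBF2 (0.72 ± 0.16, adjusted p = 0.0039) were not called under the GC and length offset, at 0.154 and 0.381, nor were MVD (0.71, and 0.244 with the offset) and FDPS (1.10 and 0.737). With that offset 9 members were higher and 1 lower. HMGCS1 (0.06 ± 0.4) and SC5D (0.06 ± 0.22) did not pass the test, with errors that leave room for a difference.

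**Figure D4:**
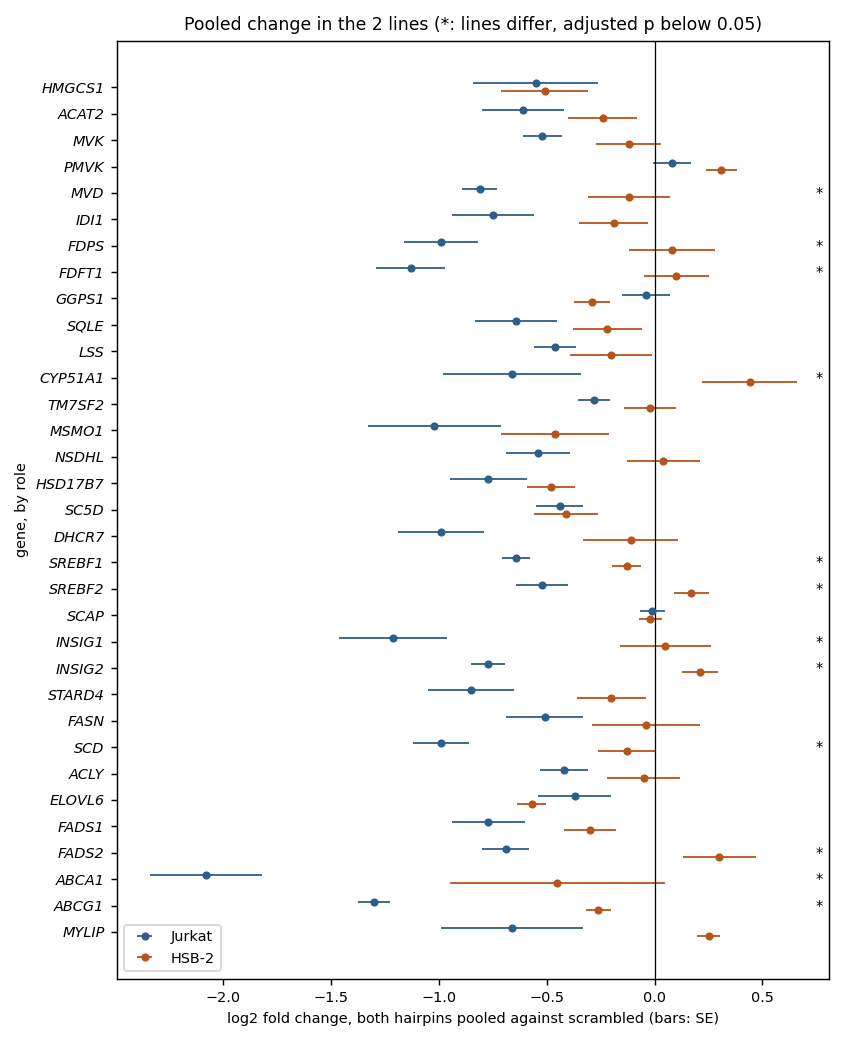
Log2 fold change (horizontal axis) of each of the 33 genes with both hairpins pooled against scrambled in Jurkat (blue) and HSB-2 (orange), with bars of 1 SE. Stars mark the 12 genes whose effect differed between the lines. Most blue points lie left of 0 and most orange ones closer to 0, with ABCA1 of Jurkat furthest left at -2.08.

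Other genes of these pathways, from lists written apart from the 33, were counted in the same way. Of 11 further sterol genes, 6 were lower and 2 higher in Jurkat with shRNA-4057 against scrambled, and 6 lower and 3 higher with shRNA-4058. For this and the other Jurkat counts below, 27.3% of all genes tested were called lower and 22.7% higher with shRNA-4057. With shRNA-4058 the shares of all genes were 26.7% and 19.7%. EBP, a sterol isomerase, changed by -0.90 ± 0.044 and -0.62 ± 0.043 with the hairpins in that order. Of 13 further fatty acid genes tested, 11 were lower and 1 higher in Jurkat with shRNA-4057, and 10 lower with shRNA-4058, the rest of the 13 not being called. ACSS2, which makes acetyl-CoA from acetate, changed by -1.36 ± 0.052 and -1.02 ± 0.05. Of 6 liver X receptors, partners and targets, 4 were lower and 2 higher with either hairpin in Jurkat. NR1H3, a liver X receptor itself, changed by -0.38 ± 0.1 and -0.35 ± 0.1, but RXRA, the partner receptor, rose by 0.56 ± 0.056 and 0.44 ± 0.056. In HSB-2 with shRNA-4058 against scrambled, where 26.6% of all genes were called higher and 26.2% lower, 6 of the sterol genes were higher and 2 lower, 7 of the fatty acid genes were higher and 2 lower, and 5 of the receptor group were higher with the other not called. With shRNA-4057 (21.9% and 21.7%), 4 of the sterol genes were higher and 3 lower, 3 of the fatty acid genes were higher and 6 lower, and 3 of the receptor group were higher with the rest not called.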

How the data were processed

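Stranded, rRNA-depleted libraries were sequenced on a NovaSeq. The authors aligned reads to GRCh37 and counted them per gene with HTSeq (0.6.1p1 per the submitters' processing notes), and deposited raw counts, neither normalized nor pooled. The strand setting of the counting is not given in the sources used here. Identifiers were paired with symbols from a separate reference table (55538 of 57820 matched), and lengths, coordinates and overlaps came from GENCODE annotation lifted to GRCh37.

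Counts were analysed with edgeR 4.0.16 in R 4.3.3: filterByExpr on groups, TMM scaling (factors 0.882 to 1.15), quasi-likelihood F-tests and Benjamini-Hochberg adjustment over all genes tested. Single hairpins and controls came from 1 fit of 16 libraries in 8 groups, pooled and interaction results from fits of 6 and 12 libraries. All members are named by role, and each library's value is given for members called in 1 direction with both hairpins against both controls of a line, for those called in opposite directions in the lines, and for SREBF1, SREBF2, INSIG1, SCD and ABCA1. The DHCR7, FDFT1 and PMVK values in HSB-2 were chosen after they were seen. The members, the lists and the motifs were chosen with earlier results of these data known. Alternatives were RLE size factors, all genes with a count, DESeq2 1.42.0, a replicate block, an offset for GC content and length, fits of 1 line, and leaving out each library. Within each of the 8 groups the 2 libraries differed beyond counting noise. The fit of 16 libraries (for Jurkat shRNA-4057 against scrambled), the Jurkat pooled fit and the interaction fit were tested on simulated data. The HSB-2 pooled fit was not. For the pooled and interaction fits these data held no difference between hairpins, so they cannot show how those fits behave where hairpins differ. Floors cover counting error only.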

Additional observations from a re-analysis of the deposited data

Results flagged for a closer look

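The effect of the pooled hairpins differed between the lines, by the interaction test over 12 libraries (edgeR quasi-likelihood, adjusted p under 0.05), for 12 members, each of them higher in HSB-2 than in Jurkat. These were 36.4% of the 33 members, where 20.6% of all genes tested were called higher and 17.1% lower. In log2 units the differences were 0.71 for MVD, 1.10 for FDPS, 1.25 for FDFT1, 1.12 for CYP51A1, 0.53 for SREBF1, 0.72 for SREBF2, 1.29 for INSIG1, 1.01 for INSIG2, 0.89 for SCD, 1.01 for FADS2, 1.63 for ABCA1 and 1.05 for ABCG1. The values of ABCA1 rest on 4 to 19 counts a library in HSB-2, and those of CYP51A1 on a row with overlapping genes. MVD, FDPS, CYP51A1, INSIG1 and ABCA1 lost the call in at least 1 fit without a library. With the GC and length offset MVD was at 0.244, FDPS at 0.737, SREBF1 at 0.154 and SREBF2 at 0.381, none of them called, and with the replicate block MVD (0.709) and CYP51A1 (1.13) were not called. No group was tested for a library standing apart, since each group had 2 libraries.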

How the results depend on the processing

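In Jurkat, 27 members were called lower with both hairpins against both controls, 26 with DESeq2 and with the replicate block, 25 with the GC and length offset and with Jurkat libraries alone (these counts were added after seeing the data), and 23 to 27 without 1 library. Each of the 27 kept its direction in these fits except FASN, which turned with the offset as given below. In HSB-2 that count was 5, but 4 with DESeq2 and with RLE size factors, 10 with the offset (1 higher in place of 0) and 2 to 5 without 1 library.

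The pooled Jurkat count of 25 was 10 with wild-type as control and 7 to 25 without 1 library. The pooled HSB-2 count of 6 was 27 with the hairpins as separate groups in the fit of all 16 libraries, 13 with the offset and 2 to 9 without 1 library. The interaction count of 12 (0 lower) was 10 with the offset (1 of them lower) and 10 with the replicate block, but 30 with the hairpins as separate groups. Those fits leave the difference between hairpins out of the error, and the other causes were not tested.

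Of 276 single-gene results, 270 kept their direction and side of the threshold with RLE size factors, 274 with all genes, 269 with DESeq2 and 236 with the offset, and 1115 of 1200 did without 1 library, where the lone library left in a group is assumed to vary like those of the other groups. All 18 sign changes of a value called in the main fit or in the alternative came with the offset. In Jurkat with shRNA-4058 these were SCAP (0.149 against scrambled, 0.144 against wild-type) and FASN (0.0194 against wild-type). In HSB-2 with shRNA-4057 it was SREBF2 (-0.119 against scrambled). In HSB-2 with shRNA-4058 against scrambled they were MVK (-0.177), MVD (-0.262), LSS (-0.217), TM7SF2 (-0.265), SC5D (0.0488), DHCR7 (-0.0974), SREBF2 (-0.0323), FASN (-0.0907), SCD (-0.00659) and ACLY (-0.0544), and against wild-type FDPS (-0.0101), TM7SF2 (-0.214), SCAP (-0.191) and STARD4 (0.151). Of the 18, those of SCAP, MVK, LSS and STARD4, of SREBF2 with shRNA-4057 and of TM7SF2 against wild-type were called with the offset only. The cause of the sign changes was not tested. In scrambled against wild-type HSB-2 cells the split of 5 higher and 11 lower became 10 and 10. The offset moved the median of all genes by 0.117 in HSB-2 against Jurkat wild-type cells, where 25 members were then higher and 4 lower.

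The replicate numbers were not taken to pair the libraries: deviations of same-numbered libraries correlated at -0.23 to 0.20 in Jurkat (3 of 6 pairs over 0.1) and -0.16 to 0.13 in HSB-2 (1 of 6). With the replicate block, 273 of 276 single-gene results were the same and 3 were no longer called. Depth limits ABCA1 in HSB-2 and CYP51A1 in Jurkat.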
